A study of Sus scrofa domesticus with 6 samples.

Results

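CXCL9, CXCL10 and CXCL11 are the chemokine ligands of the receptor CXCR3, and IDO1 encodes indoleamine 2,3-dioxygenase, the enzyme that opens the kynurenine pathway of tryptophan breakdown. These 5 genes, of 33025 named in the count matrices, were taken by exact symbol, and all 5 were listed in all 6 libraries. They were chosen because their difference between injured and control lung was already known from these libraries, so their levels are given as a description, without a test. Single-cell RNA-seq was made from pig lung (Sus scrofa domesticus) in a single-lung transplant model of ischaemia-reperfusion injury (IRI). The IRI group was the transplanted lung after 24 h of cold ischaemia and 8 h of reperfusion, sorted into CD45+ cells (2 libraries) or CD45- cells (1 library). The control group was the right lung of the donor, taken after retrograde perfusion and processed as an unsorted suspension (3 libraries). No control library was sorted, so the sort and the injury cannot be told apart. The count files of the groups also differ, as given below, and the labels do not say which libraries share an animal.

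Interferon-gamma induces all 3 ligands and IDO1, and the ligands attract activated T cells, natural killer cells and some plasma cells that carry CXCR3. Type I interferon can induce CXCL10 and CXCL11 as well, and CXCL11 binds CXCR3 most tightly. IDO1 in dendritic cells and macrophages depletes tryptophan, makes kynurenine and dampens T cells. On the RefSeq annotation of Sscrofa11.1 the ligand genes lie side by side on chromosome 8, CXCL9 at 71665541 to 71670236, CXCL10 at 71693641 to 71695948 and CXCL11 at 71713790 to 71725669. CXCR3 lies on chromosome X at 57592032 to 57595706 and IDO1 on chromosome 17 at 9245283 to 9260140.

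The libraries were deposited with 19098567 to 40647380 UMIs (unique molecular identifiers, each 1 captured RNA molecule), and 40812 cells remained after filtering. Cells were clustered without the 5 genes and without the pathway genes named below, and each cluster was called after a cell type only from marker genes. The lowest UMI count of a deposited cell was 1001 in every control library but 74 to 117 in the IRI libraries, and mitochondrial genes were at 0 in the IRI libraries. The genes listed in all 6 libraries held 98.8% to 99.9% of the UMIs of the IRI libraries and 85.8% to 89.0% of those of controls. These differences between the files follow the groups. For any gene, their part cannot be told apart from that of the injury or the sort. In the library labelled CD45-, 13.3% of the kept cells fell into immune classes, and alveolar type 2 (AT2) cells, which make surfactant, were 54.5% of the cells. Between 5.93% and 14.9% of the cells of a library lay in clusters with no name. Levels are in CPM, the UMIs of a gene in the cells of 1 class in 1 library, scaled to 1000000 UMIs of the genes listed in all 6 libraries, and a class with fewer than 20 cells in a library has no level there. Intervals and limits cover counting error only.

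**Figure D1:**
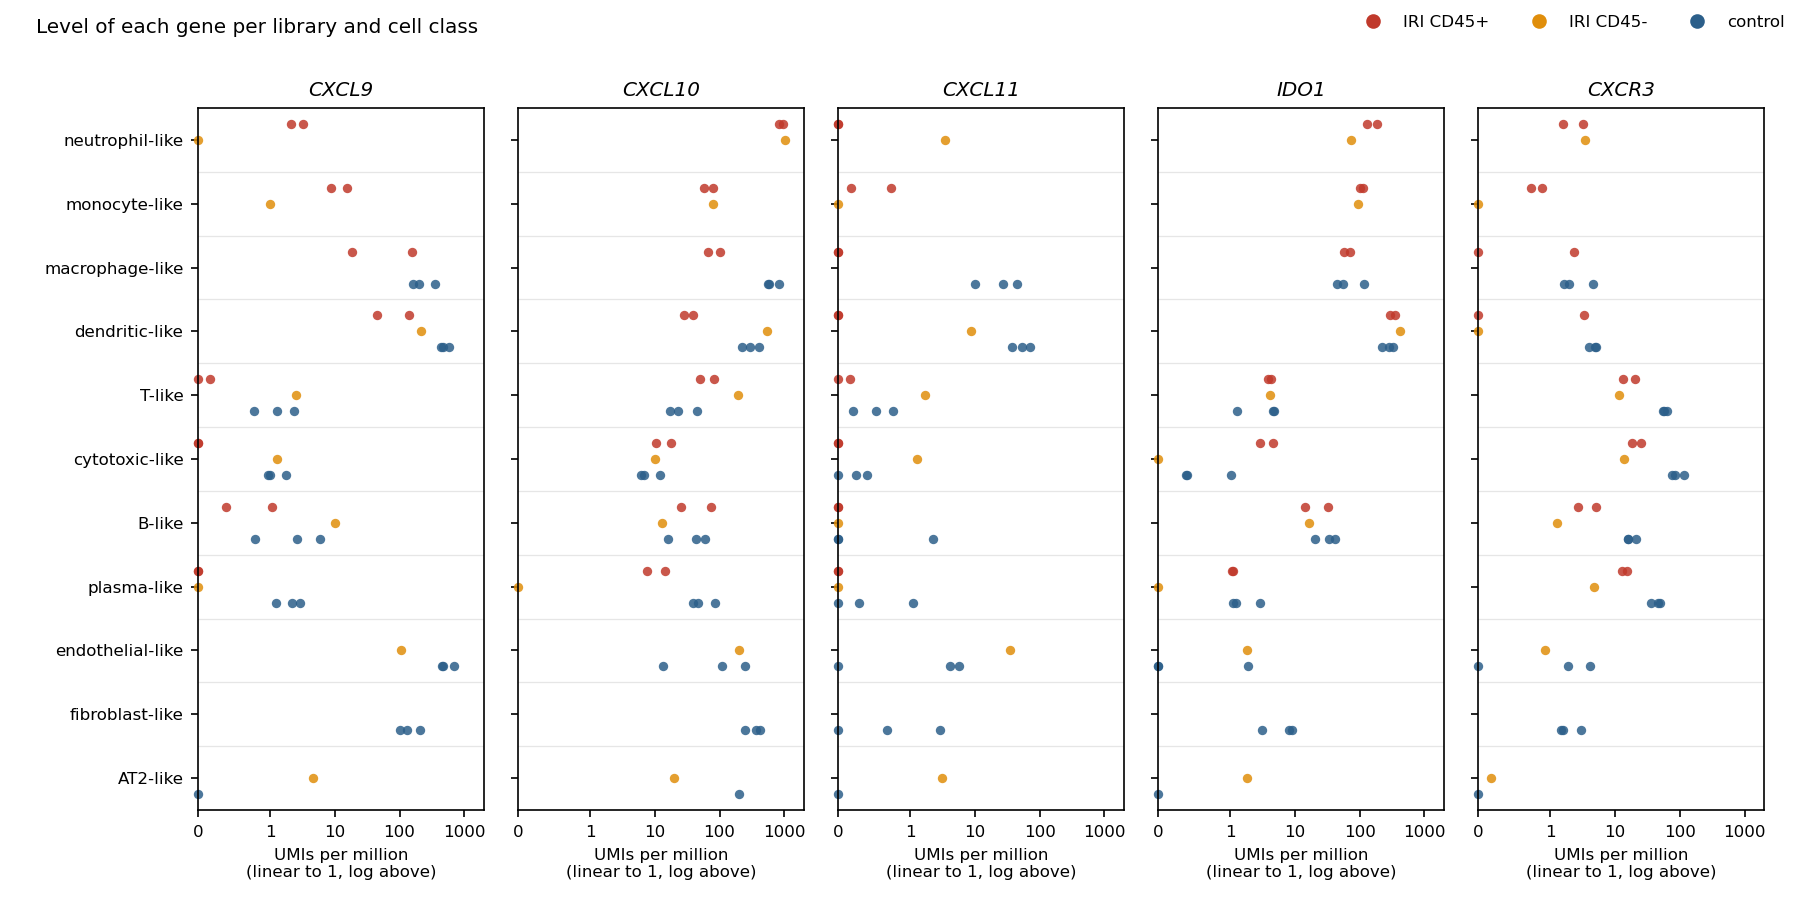
Level of each gene in each cell class, as CPM (linear up to 1, log scale above); each point is 1 library, with CD45+ IRI and CD45- IRI drawn above control in each class. Classes with fewer than 20 cells in a library are not drawn, and the control point of AT2-like cells is 1 library of 20 cells; CXCL9 and CXCL11 of the dendritic-like cells lie lower in the CD45+ IRI libraries than in the controls, while IDO1 there overlaps.

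CXCL9, the ligand that depends most on interferon-gamma, was lower in the dendritic-like and endothelial-like cells of the graft than in those of control lung. In macrophage-like cells it was lower on average. In dendritic-like cells it stood at 141 and 45.7 CPM in the 2 CD45+ IRI libraries and 215 in the CD45- IRI library, against 472, 443 and 579.7 in the 3 controls. All 3 IRI libraries lay below all controls. The CD45+ IRI libraries averaged 93.2 ± 67.3 (SD, n = 2) and the controls 498 ± 72.0 (SD, n = 3), a log2 ratio of -2.42. Of all genes tested in dendritic-like cells, 35.6% had both CD45+ IRI libraries below every control, a figure given as background since these genes were picked on this contrast. A single cell held 74 of the 86 CXCL9 UMIs of the first CD45+ IRI library, and without that library the log2 ratio was -3.45. Dendritic-like cells with a CXCL9 UMI were 8.77% and 4.82% of the class in the CD45+ IRI libraries and 10.6% in the CD45- IRI library, against 16.5%, 19.5% and 24.1% in controls. The CD45+ IRI cells were deeper, with medians of 9059 and 9294 UMIs against 6441, 6536 and 7173 in controls. After each cell was cut to 500 UMIs by thinning, these shares came to 2.65% and 1.49% in CD45+ IRI libraries and 4.17% in the CD45- IRI library, and 6.03%, 8.89% and 12.5% in controls, and the groups kept their order.

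Macrophage-like cells carried CXCL9 at 158 and 18.2 CPM in the CD45+ IRI libraries, against 350.2, 202 and 162 in controls. Both lay below the controls, the first by a small margin. That margin did not hold under TMM scaling between libraries, where the first lay above the lowest control. On that scale 39.2% of all genes tested in this class had both CD45+ IRI libraries below every control. The share of cells with a CXCL9 UMI averaged 5.80% in CD45+ IRI and 7.38% in control libraries. The IRI values rest on 35 and 33 cells, with 68 UMIs in 3 cells of the first library and 5 UMIs in 1 cell of the second. The log2 ratio was -1.43, and it was -0.59 without the second CD45+ IRI library and -3.71 without the first. Summed T cell markers stood at 451 and 349 CPM in these IRI macrophage-like cells (12 of 12 and 11 of 12 markers seen), against 82.3 to 150 in controls. Summed neutrophil markers ranged from 5066 to 9335 in the IRI libraries and from 4209 to 6824 in controls. Whether RNA of other cells takes part in the macrophage-like values was not tested.

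Endothelial cells line vessels and can present CXCL9 to passing lymphocytes. In endothelial-like cells CXCL9 was at 105 CPM in the CD45- IRI library (Poisson interval 86.3 to 126, 670 cells), against 449, 683 and 469.9 in controls. The lone IRI library lay below all controls, as did 35.8% of all genes tested in this class, and the log2 ratio was -2.35. The share of cells with a CXCL9 UMI was 3.73% in the CD45- IRI library, against 28.2%, 21.9% and 9.50% in controls, and 2.47% against 12.2%, 12.2% and 4.66% after thinning. The IRI cells came mostly from cluster 23, led by PLAT, CLDN5, CDH5 and CCL21, and the control cells mostly from cluster 5, led by FMO1, EDNRB and AQP1. AT2 markers summed to 49132 CPM in the IRI endothelial-like cells, against at most 62.9 in those of controls, and endothelial markers to 3893, against 8597 to 10714. The part of the surfactant RNA in these lower levels was not tested.

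Only control lung had enough fibroblast-like and smooth muscle-like cells for a level. Fibroblast-like cells held CXCL9 at 210.3, 103 and 130.4 CPM and smooth muscle-like cells at 198, 219.8 and 189.5. In control lung the endothelial-like and dendritic-like ranges overlapped at the top of the order, followed by the macrophage-like, smooth muscle-like and fibroblast-like cells, whose ranges also overlapped their neighbours. In the CD45+ IRI libraries dendritic-like and macrophage-like cells overlapped at the top, and monocyte-like cells followed at 8.85 and 15.4 and neutrophil-like cells at 3.20 and 2.12. In T-like cells CXCL9 stayed at or under 2.51 in every library. Plasma-like cells, taken as the class that should lack the gene, held 0 in the 3 IRI libraries and 1.23 to 2.89 in controls.

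CXCL10 differed between classes in its direction: it was lower in IRI macrophage-like and CD45+ IRI dendritic-like cells, higher in IRI T-like cells, and highest among the graft classes in neutrophil-like cells, which control lung nearly lacked. Macrophage-like cells held CXCL10 at 100.1 and 65.5 CPM in the CD45+ IRI libraries, against 835, 579 and 561 in controls. Every control lay above both IRI libraries. The means were 82.8 ± 24.4 (SD, n = 2) in CD45+ IRI and 659 ± 153 (SD, n = 3) in control libraries, a log2 ratio of -2.99. The share of these cells with a UMI was 25.7% and 12.1% in CD45+ IRI libraries against 29.3%, 29.8% and 26.7% in controls, in cells with medians of 10825 and 8558 UMIs against 5187 to 6207. Thinned to 500 UMIs per cell, it was 5.11% and 2.37% in CD45+ IRI libraries and 13.6%, 11.6% and 11.2% in controls. Within cluster 15, which held macrophage-like cells of both groups, CXCL10 was 138 and 78.3 in the CD45+ IRI libraries and 847, 639 and 825 in controls.

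Dendritic-like cells held CXCL10 at 27.8 and 39.3 CPM in the CD45+ IRI libraries and 542 in the CD45- IRI library, against 222, 405 and 298 in controls. The CD45+ IRI libraries lay below the controls and the CD45- IRI library above them, but 155 of its 189 UMIs came from 1 cell. The share of cells with a UMI in that library, 11.8%, was close to the 12.3% and 10.8% of the CD45+ IRI libraries, and the controls had 21.4%, 28.03% and 23.02%. The log2 ratio of CD45+ IRI over control was -3.20, and -2.26 when cells needed 1000 UMIs and 500 genes. Summed dendritic markers were higher in the IRI classes, at 4813 and 3277 in CD45+ IRI and 3392 in CD45- IRI libraries against 1688 to 1823 in controls. T cell markers in this class summed to 619 and 426 in CD45+ IRI and 304 in CD45- IRI libraries, against 214 to 263 in controls, and AT2 markers reached 5854 in the CD45- IRI library, against at most 83.3 in controls. Their part in the ligand levels was not tested.

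Neutrophils enter a reperfused lung early, and in neutrophil-like cells CXCL10 was at 947 and 833 CPM in the CD45+ IRI libraries (intervals 894 to 1003 and 776 to 893) and at 1028 in the CD45- IRI library (interval 915 to 1152). No control library had more than 6 neutrophil-like cells, so there is no control level. These cells, which formed cluster 24, gave 57.9% and 44.7% of all CXCL10 UMIs in the CD45+ IRI libraries from 19.3% and 18.7% of the cells, and 15.3% in the CD45- IRI library. The UMIs came from 9.73%, 10.5% and 13.1% of the neutrophil-like cells, with up to 96, 110 and 30 in 1 cell, at medians of only 1018, 893 and 920 UMIs per cell. CXCL9 and CXCL11 were near 0 in the same cells, with 4, 2 and 0 UMIs of CXCL9 and 0, 0 and 1 of CXCL11. Summed cytotoxic markers reached 10304 and 6115 CPM in CD45+ IRI and 3736 in CD45- IRI neutrophil-like cells, of which CCL5, a chemokine of T and natural killer cells, made 9313, 5204 and 2967. T cell markers summed to 786, 755 and 367. CXCL10 in T-like cells was at 49.0 and 82.8 in the same CD45+ IRI libraries and 193 in the CD45- IRI library, and in cytotoxic-like cells at 10.3, 17.6 and 10.2. The part of lymphocyte RNA in the neutrophil-like level was not tested.

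Monocyte-like cells, which also had too few control cells, held CXCL10 at 58.2 and 79.7 CPM in the CD45+ IRI libraries and 78.0 in the CD45- IRI library. In the CD45+ IRI libraries the neutrophil-like range stood apart from the next class, and the ranges of the macrophage-like, monocyte-like, T-like and B-like cells overlapped from one to the next. In control lung the macrophage-like range stood apart at the top. Below it the fibroblast-like (249, 368 and 425), dendritic-like, smooth muscle-like (315, 121 and 196) and endothelial-like ranges overlapped from one to the next. Control macrophage-like cells held 63.0%, 35.9% and 34.5% of their library's CXCL10 UMIs, and fibroblast-like cells, the main cells of the connective tissue, 9.88%, 28.8% and 44.3%.

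**Figure D2:**
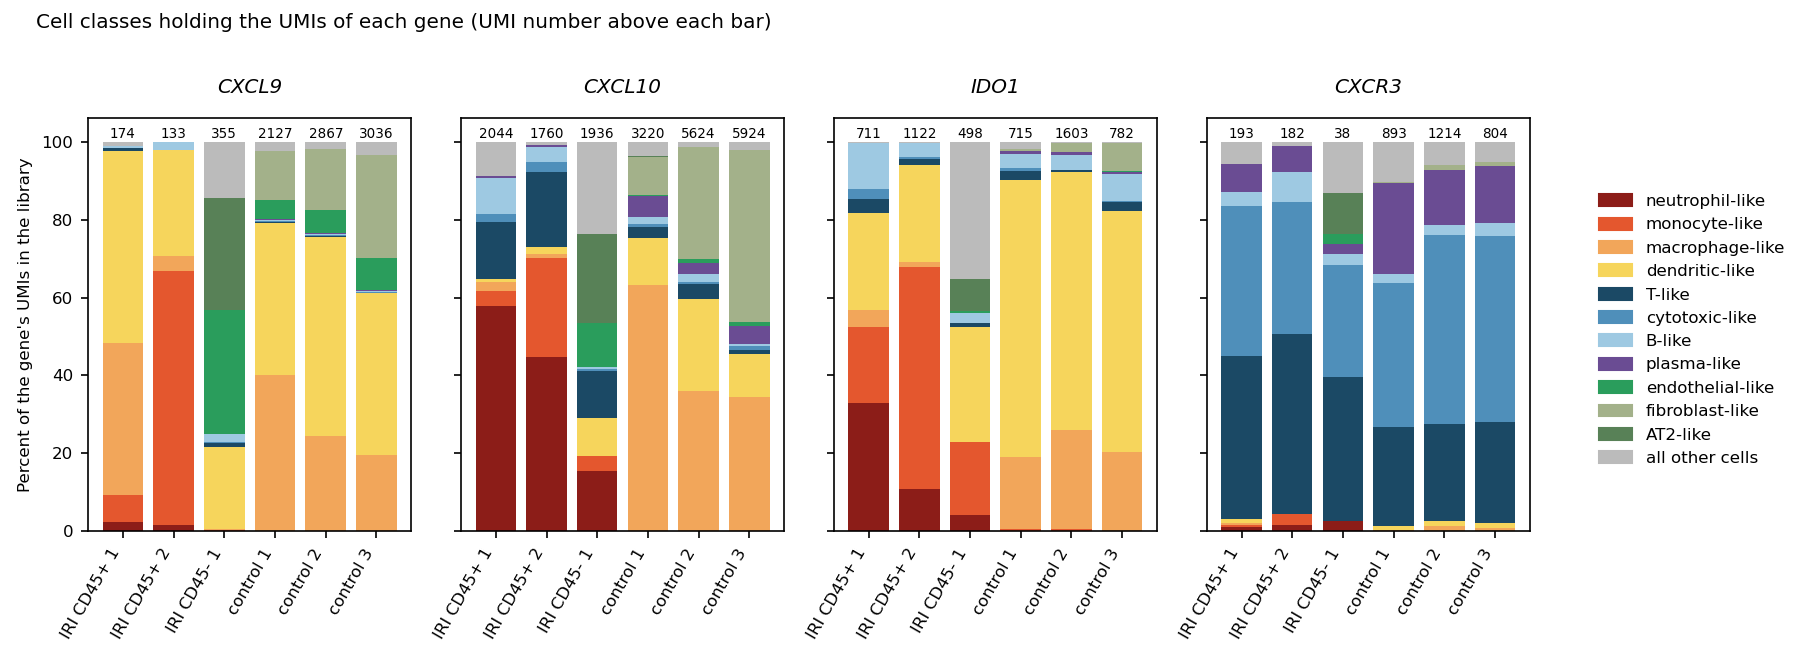
Share of each library's UMIs of a gene that came from each cell class, in percent; each bar is 1 library, the IRI libraries left of the controls, with its number of UMIs above it, for CXCL9, CXCL10, IDO1 and CXCR3. For CXCL10 the neutrophil-like part is 57.9% and 44.7% in the CD45+ IRI libraries, and the control bars are led by macrophage-like and fibroblast-like cells.

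T-like cells held CXCL10 at 49.0 and 82.8 CPM in the CD45+ IRI libraries and 193 in the CD45- IRI library, against 23.0, 44.6 and 17.2 in controls. All IRI libraries lay above all controls, as both CD45+ IRI libraries did for 35.1% of genes tested in this class. The log2 ratio of CD45+ IRI over control was 1.22, and 0.41 when cells needed 1000 UMIs and 500 genes. A single cell gave 107 of the 339 UMIs of the second CD45+ IRI library and another 67 of the 231 of the CD45- IRI library. CXCL10 was also seen in plasma-like cells, where it is not expected, in 3.70% and 8.54% of those of the CD45+ IRI libraries and 7.79%, 8.41% and 9.49% of those of controls, at medians of 5270 and 7406 against 5346 to 5820 UMIs per cell. The control T-like shares of 3.62%, 4.27% and 3.10%, at medians of 1967 to 2176 UMIs, lay below these, in cells of lower depth. Thinned to 500 UMIs per cell, the control T-like shares were 1.02%, 1.23% and 0.541% and the control plasma-like shares 1.38%, 2.05% and 2.48%, so no expression is read from the control T-like shares. The IRI T-like shares were 7.18% and 6.17% in CD45+ IRI libraries and 7.24% in the CD45- IRI library, and after thinning 1.65% and 1.51% of CD45+ IRI T-like cells had a UMI, against 0.400% and 0.262% of the plasma-like cells of the same libraries. In plasma-like cells themselves CXCL10 was at 14.3 and 7.55 CPM in CD45+ IRI libraries against 38.9, 45.7 and 85.3 in controls. Summed dendritic markers in T-like cells stood at 977 and 922 in CD45+ IRI and 777 in CD45- IRI libraries, against 275 to 342 in controls, and neutrophil markers at 171, 218 and 191, against 72.2 to 109. Their part in the T-like CXCL10 level was not tested.

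In cytotoxic-like cells, the class of killer T and natural killer cells, CXCL10 was at 10.3 and 17.6 CPM in CD45+ IRI libraries and 10.2 in the CD45- IRI library, against 6.89, 6.21 and 12.1 in controls, and the groups overlapped. In B-like cells it was at 72.6 and 25.1 in CD45+ IRI libraries and 12.7 in the CD45- IRI library, against 43.3, 59.6 and 15.8 in controls, again overlapping. In endothelial-like cells it was at 203 in the CD45- IRI library (interval 177 to 232), inside the control values of 13.5, 248 and 108. AT2-like cells of the graft held it at 19.98, with a UMI in 1.87% of 8186 cells.

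CXCL11 was the scarcest ligand and was nearly missing from the sorted graft leukocytes. The CD45+ IRI libraries held 2 and 1 UMIs of it in all their cells and the CD45- IRI library 133, against 143, 354 and 220 in controls. Dendritic-like cells of the CD45+ IRI libraries had none in 140 cells, which allows a share of cells with a UMI of up to 2.14%, and 60 of 985 control cells (6.09%) had one, with the cells of each group pooled over its libraries. The control levels were 36.8, 54.2 and 70.1 CPM, so at a floor of 3 counts over the CD45+ IRI group CXCL11 was at least 25.1-fold lower there, a bound that takes UMIs as independent and leaves out the spread between libraries. The CD45- IRI library held 3 UMIs, or 8.61 CPM, below all controls. Macrophage-like cells of the CD45+ IRI libraries had none in 68 cells, which allows up to 4.41%, against 23 of 1098 control cells (2.09%). The control levels were 26.7, 44.2 and 9.88 CPM. A share of the control size would not have been detectable in so few cells, so no difference can be read for this class.

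In control lung the dendritic-like cells held 45.5%, 50.6% and 69.5% of the CXCL11 UMIs and the macrophage-like cells 45.5%, 43.5% and 16.4%. In the CD45- IRI library the AT2-like cells gave 52.6%, as 70 UMIs in 15 cells. Endothelial-like cells of that library held 38 UMIs, 36 of them in 1 cell, which puts their level at 35.2 against 0, 4.07 and 5.66 in controls.

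Over the whole dendritic-like and macrophage-like classes IDO1 did not follow the ligands. Among dendritic-like cells with a CCL22 or CCR7 UMI and no XCR1 UMI it was lower in both CD45+ IRI libraries, as given below. In dendritic-like cells it was at 289.9 and 354 CPM in the CD45+ IRI libraries and 422 in the CD45- IRI library, against 287, 322 and 221 in controls. The second CD45+ IRI and the CD45- IRI library lay above all controls, and the first within them. The means of 322 ± 45.3 (SD, n = 2) in CD45+ IRI and 277 ± 51.2 (SD, n = 3) in control libraries gave a log2 ratio of 0.22, between 0.07 and 0.36 when any 1 library was left out. The share of dendritic-like cells with an IDO1 UMI was 38.6% and 34.9% in CD45+ IRI libraries and 23.5% in the CD45- IRI library, against 22.6%, 29.8% and 21.3% in controls, and 11.101%, 13.78% and 11.53% against 8.60%, 11.9% and 8.01% after thinning. Macrophage-like cells held IDO1 at 72.1 and 58.2 in CD45+ IRI libraries, within the control values of 54.3, 118 and 43.9.

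The cells that carried IDO1 in the graft were partly ones that control lung had too few of. Neutrophil-like cells held it at 187 and 129 CPM in the CD45+ IRI libraries and 72.7 in the CD45- IRI library, in 9.61%, 6.32% and 2.86% of cells. Monocyte-like cells held it at 102 and 113 in CD45+ IRI libraries and 93.01 in the CD45- IRI library, in 12.4%, 14.7% and 10.3% of cells. These classes gave 32.9% (neutrophil-like) and 19.5% (monocyte-like) of the IDO1 UMIs of the first CD45+ IRI library and 10.9% and 56.9% of those of the second, while dendritic-like cells gave 24.9% of each. In controls dendritic-like cells gave 70.9%, 66.2% and 61.6%. The classes ranked dendritic-like, neutrophil-like, monocyte-like, macrophage-like and B-like in the CD45+ IRI libraries, each range apart from the next, and dendritic-like, macrophage-like and B-like in controls, again apart.

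B-like cells held IDO1 at 32.1 and 14.5 CPM in CD45+ IRI libraries and 16.6 in the CD45- IRI library, against 20.5, 33.2 and 42.1 in controls, with overlap. T-like cells held 3.91 to 4.25 in the IRI libraries and 1.28 to 4.70 in controls, near the 0 to 1.10 in IRI and 1.09 to 2.89 in control plasma-like cells. Cytotoxic-like cells had 18 and 7 IDO1 UMIs in the CD45+ IRI libraries, 10 of the 18 in 1 cell, and 34.2% of genes tested in that class had both CD45+ IRI libraries above all controls. The levels were 4.53 and 2.87 CPM in these libraries and 0 in 348 cells of the CD45- IRI library, against 1.02, 0.388 and 0.402 in controls, which had 2 to 4 UMIs each. The CD45+ IRI libraries lay above the controls and the CD45- IRI library did not, and all of these values rest on few molecules. Endothelial-like cells had at most 2 IDO1 UMIs in a library.

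Dendritic cells come as type 1 cells, which carry XCR1 and hand antigen to CD8 T cells, and as mature migrating cells, which carry CCR7 and CCL22. Among control dendritic-like cells, those with an XCR1 UMI and no CCL22 or CCR7 UMI (42, 72 and 51 cells) held IDO1 at 97.9, 111 and 34.0 CPM, and those with a CCL22 or CCR7 UMI and no XCR1 UMI at 629, 558 and 458. CXCL11 had 0, 0 and 2 UMIs in the XCR1 cells and 48, 110 and 126 in the CCL22 or CCR7 cells, the 48 from 2 of 77 cells. Control cells with UMIs of both kinds (36, 59 and 49 cells) held IDO1 at 112, 240 and 107, below the CCL22 or CCR7 cells. They held CXCL11 at 38.4, 68.8 and 54.6, so the 2 genes did not split alike. CXCL9 was not scarce in the XCR1 cells, with a UMI in 26.2%, 30.6% and 25.5% of them at 369, 231 and 869 CPM, against 527, 402 and 609 in the CCL22 or CCR7 cells. In the graft, fewer than 10 cells of a library were XCR1 cells, so the groups were compared in CCL22 or CCR7 cells. There IDO1 was at 373 and 373 in the CD45+ IRI libraries and 538 in the CD45- IRI library, against 629, 558 and 458 in controls, in 46.3%, 35.3% and 26.8% of IRI cells and 42.9%, 44.3% and 33.9% of control cells. CXCL9 in these cells was at 26.2 and 25.2 in CD45+ IRI libraries and 296 in the CD45- IRI library, below the controls in all 3. In the first control library 187 of its 320 UMIs came from 1 cell. A CXCL9 UMI was in 9.76%, 2.94% and 10.7% of IRI cells and 11.7%, 16.1% and 29.4% of control cells. After thinning the shares were 1.26% and 1.25% in CD45+ IRI libraries, 5.57% in the CD45- IRI library and 3.32%, 8.39% and 14.9% in controls. CXCL10 was at 30.5, 40.9 and 115 in the CD45+ IRI 1, CD45+ IRI 2 and CD45- IRI libraries, against 255, 296 and 441 in controls. The low CXCL9 and CXCL10 levels of the CD45+ IRI dendritic-like cells thus stood also among cells matched on these markers. In the CD45- IRI library the thinned CXCL9 share lay among the controls. IDO1 lay below all controls in both CD45+ IRI libraries and among them in the CD45- IRI library.

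Some pairs of members were seen together in single cells, each more often in cells with the other than in cells without it. The margin differed between pairs, classes and libraries. Of control dendritic-like cells with a CXCL9 UMI (41, 87 and 70 cells), 53.7%, 69.0% and 54.3% also had CXCL10, against 14.98%, 18.1% and 13.1% of those without. CXCL11 was in 19.5%, 24.1% and 24.3% of the CXCL9 cells and in 0%, 2.79% and 1.81% of the others. The CXCL9 cells were deeper, with medians of 9570, 7687 and 7894 UMIs against 5705, 6387 and 6837. Control macrophage-like cells with IDO1 had CXCL10 in 57.1%, 59.4% and 67.9%, against 26.1%, 24.3% and 23.7% of those without. In control dendritic-like cells, by contrast, 28.6%, 29.3% and 27.4% of IDO1 cells had CXCL10, against 19.3%, 27.5% and 21.8% of the others. In the CD45+ IRI 1, CD45+ IRI 2 and CD45- IRI libraries 22, 29 and 20 dendritic-like cells had IDO1. Of these, 18.2%, 31.0% and 15% had CXCL10, against 8.57%, 0% and 10.8% of the others. CXCL9 was in 18.2%, 13.8% and 40%, against 2.86%, 0% and 1.54%. The IDO1 cells were deeper, with medians of 11161, 11471 and 4796 UMIs against 8086, 8775 and 3173. In monocyte-like cells of the CD45+ IRI libraries CXCL10 was in 7.41% and 9.66% of IDO1 cells, which were deeper, against 7.37% and 4.88% of the others. In endothelial-like cells IDO1 had 2 UMIs in the CD45- IRI library and 1 in controls, too few to read its co-detection with CXCL9. In neutrophil-like cells, where depth was alike with and without CXCL10 (medians 1038 and 1018 UMIs in the first CD45+ IRI library, 876 and 897 in the second), IDO1 was in 16.5% and 18.8% of CXCL10 cells against 8.87% and 4.86% of the others, and in 6.25% against 2.35% in the CD45- IRI library. Ligand UMIs were concentrated: in a library, the top 10% of positive cells held between 47.7% and 71.8% of the UMIs of CXCL9, CXCL10 or CXCL11 (leaving out CXCL11 in the CD45+ IRI libraries, which had 2 and 1 UMIs), 42.9% to 46.7% of those of IDO1 and 22.5% to 29.8% of those of CXCR3.

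**Figure D3:**
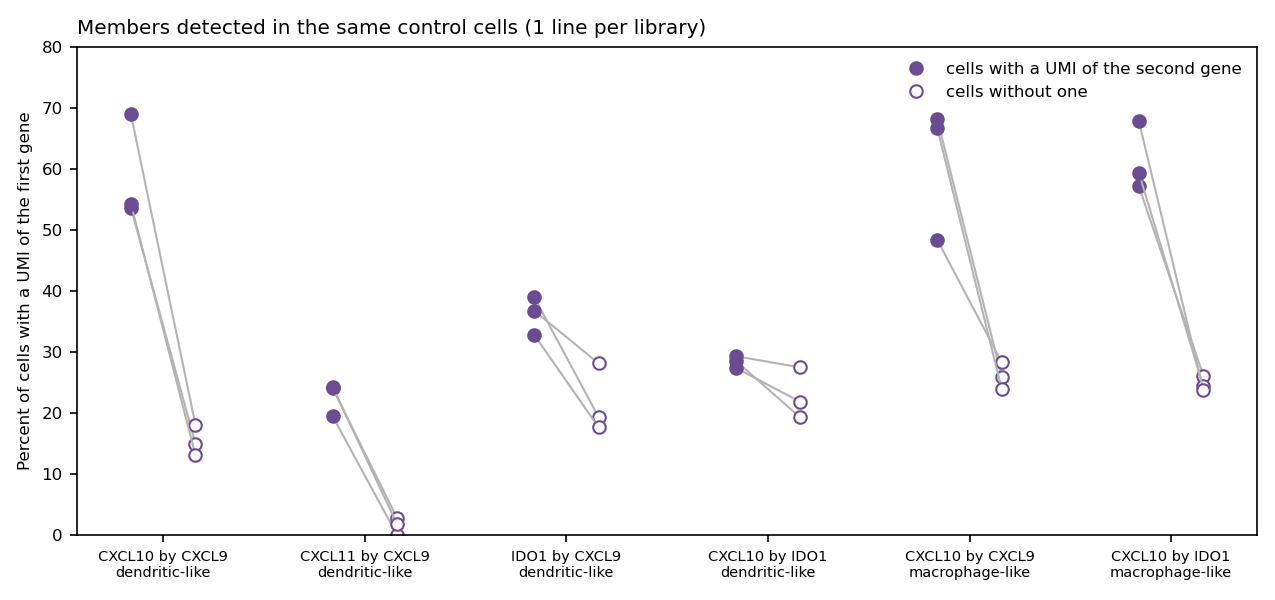
Percent of control cells with a UMI of the first gene named on the axis, among cells with (filled) and without (open) a UMI of the second, for 6 pairs and classes; each line is 1 control library. In dendritic-like cells CXCL10 is seen in 53.7% to 69.0% of CXCL9 cells and in 13.1% to 18.1% of the others.

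CXCR3, the G protein-coupled receptor of the ligands, was lower in all 4 lymphoid classes of the graft. Cytotoxic-like cells held it at 18.6 and 25.4 CPM in the CD45+ IRI libraries and 14.0 in the CD45- IRI library, against 84.4, 115 and 76.9 in controls. All IRI libraries lay below all controls, as both CD45+ IRI libraries did for 38.6% of genes tested in this class. The means were 22.0 ± 4.82 (SD, n = 2) in CD45+ IRI and 92.0 ± 19.9 (SD, n = 3) in control libraries, a log2 ratio of -2.06. A CXCR3 UMI was found in 5.98% (exact interval 4.501% to 7.773%) and 6.73% (4.76% to 9.19%) of CD45+ IRI cytotoxic-like cells, against 19.4% (17.0% to 21.9%), 23.7% (21.3% to 26.2%) and 17.7% (15.53% to 19.997%) in controls. The CD45+ IRI cells were the deeper ones, with medians of 3078 and 2892 UMIs against 2115 to 2392. After thinning the shares were 0.799% and 0.820% in CD45+ IRI libraries and 3.77%, 4.60% and 3.05% in controls. Fibroblast-like cells, which should lack CXCR3, had a UMI in 0.609% to 1.08% of control cells, at medians of 3277 to 3984 UMIs, and AT2-like cells in 0.0489% of those of the graft.

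T-like cells held CXCR3 at 13.2 and 20.5 CPM in the CD45+ IRI libraries and 11.7 in the CD45- IRI library, against 58.0, 64.5 and 54.3 in controls. Again no IRI library reached a control, and 38.3% of genes tested in T-like cells had both CD45+ IRI libraries below the controls. The log2 ratio was -1.80. Different clusters held most of the T-like cells of the groups, cluster 7 in the graft and cluster 0 in control lung. Inside cluster 7 CXCR3 was at 13.1, 20.7 and 12.6 in the CD45+ IRI 1, CD45+ IRI 2 and CD45- IRI libraries, and its few control cells (28, 60 and 52) held it at 96.1, 8.62 and 44.3, so within that cluster the groups overlapped. Cytotoxic-like cells were likewise cluster 8 in the graft (18.1, 25.6 and 14.3) and clusters 1 and 2.2 in control lung (81.8, 114 and 75.0 in cluster 1). The lone library of control cells in cluster 8, with 24 cells, held 39.3.

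B cells mature into plasma cells, and CXCR3 was higher in the plasma-like class. Plasma-like cells held it at 15.4 and 12.9 CPM in the CD45+ IRI libraries and 4.74 in the CD45- IRI library, against 45.7, 49.8 and 35.7 in controls (log2 ratio of CD45+ IRI over control -1.62). B-like cells held it at 2.70 and 5.09 in CD45+ IRI libraries and 1.27 in the CD45- IRI library, against 15.7, 15.8 and 21.1 in controls (log2 ratio -2.17). In both classes every IRI library lay below every control, as both CD45+ IRI libraries did for 34.5% of genes tested in plasma-like and 31.7% in B-like cells. Each value of the CD45- IRI library rests on 1 UMI, in 61 plasma-like and 291 B-like cells. In controls the order of cytotoxic-like, T-like, plasma-like and B-like cells had no overlap between neighbours. In the CD45+ IRI libraries the cytotoxic-like, T-like and plasma-like ranges overlapped from one to the next, and B-like cells stood apart below them.

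Cells with a UMI of CD3D, CD3E or CD3G, the T cell receptor's signalling chains, carried CXCR3 more often than cells without. Among cytotoxic-like cells it was 7.16% against 2.35% and 8.09% against 3.66% in the CD45+ IRI libraries, and 27.0% against 6.94%, 29.7% against 11.7% and 24.0% against 7.11% in controls. Cells with CD3 were deeper, with medians of 3540 against 2221 UMIs and 3180 against 2324 in the CD45+ IRI libraries and 2968 to 3268 against 1397 to 1499 in controls. After thinning to 500 UMIs per cell the shares were 0.878% against 0.558% and 0.847% against 0.759% in the CD45+ IRI libraries. In controls they were 4.57% against 2.46%, 5.22% against 3.35% and 3.72% against 1.92%. The gaps were thus narrower, and small in the second CD45+ IRI library. Among T-like cells with CD8A and no CD4 UMI the share was 5.42% and 10% in CD45+ IRI libraries, against 22.3%, 18.3% and 17.6% in controls. With CD4 and no CD8A it was 4.79% and 10.6%, against 20.2%, 21.5% and 13.1%. The lower share in the graft thus stood in cells of either coreceptor. CXCR3 was thinly sampled: 62.0% to 75.0% of its positive cells had 1 UMI, and no cell had more than 15.

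**Figure D4:**
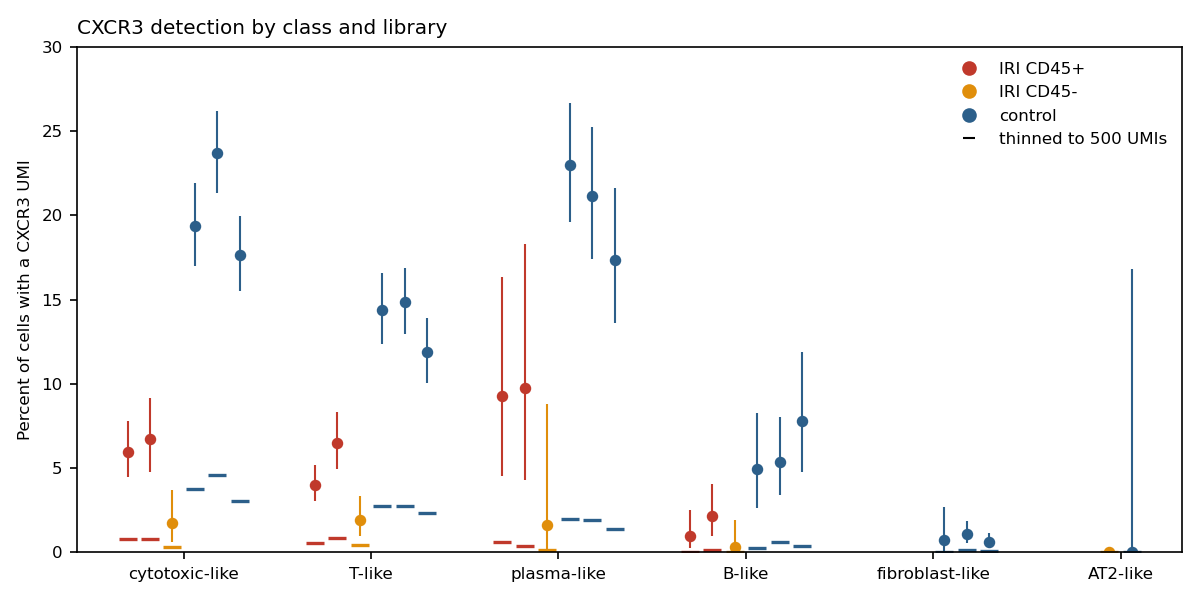
Percent of cells with a CXCR3 UMI in the lymphoid classes and in 2 classes that should lack it; each point is 1 library with its exact 95% interval, the dash is the share with cells thinned to 500 UMIs, and IRI stands left of control. Cytotoxic-like cells of the CD45+ IRI libraries lie at 5.98% and 6.73% and those of controls at 17.7% to 23.7%.

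Over whole cell families the direction differed by member and family. All myeloid cells together held CXCL9 at 43.1 and 16.8 CPM in the CD45+ IRI libraries and 45.0 in the CD45- IRI library, against 393, 311 and 310.0 in controls. CXCL10 of all myeloid cells was at 338 and 166 in CD45+ IRI libraries and 330.2 in the CD45- IRI library, against 566, 484 and 450.3 in controls, with the neutrophil-like and monocyte-like cells of the graft included. IDO1 overlapped, at 148, 136 and 153 in the CD45+ IRI 1, CD45+ IRI 2 and CD45- IRI libraries against 150.4, 213 and 107 in controls. All lymphoid cells held CXCL10 at 39.9, 44.9 and 83.6 in the same IRI libraries, above the 25.6, 33.7 and 31.7 of controls. IDO1 of all lymphoid cells was at 9.42, 6.27 and 6.04, against 3.87, 5.33 and 5.98 in controls, the lowest IRI and the highest control library being close. They held CXCR3 at 12.95, 16.8 and 9.07 in the same IRI libraries and at 57.5, 72.0 and 54.9 in controls. All structural cells held CXCL9 at 7.85 in the CD45- IRI library and at 198, 121 and 147 in controls, CXCL10 at 28.2 in that IRI library and at 190, 310 and 357 in controls, and CXCL11 at 4.13 in that IRI library and at 0, 3.07 and 2.83 in controls, but the graft's were mostly AT2-like cells and the controls' mostly fibroblast-like ones.

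The pathway around these genes was read from 4 lists of other genes: interferon receptor and signal genes, interferon-gamma target genes, the kynurenine and tryptophan genes, and genes that CXCR3-bearing cells share or use. The first list is not of interferon-gamma alone, since it also holds USP18, IRF9 and STAT2, which serve type I interferon. In each class with 20 cells or more in the libraries compared, UMIs were summed per library and all genes tested with edgeR's quasi-likelihood test (Benjamini-Hochberg adjustment over all genes, threshold 0.05); levels below are TMM-scaled CPM. In macrophage-like cells 14 of 64 list genes tested rose in the CD45+ IRI libraries and 7 fell, where 25.8% of all genes passed (10.5% rose and 15.3% fell). In dendritic-like cells 17 of 64 rose and 11 fell (36.4% of all genes passed, 15.6% upwards and 20.8% downwards), in T-like cells 29 of 67 rose and 15 fell (60.4%, 28.5% upwards and 32.0% downwards), in cytotoxic-like cells 29 of 67 rose and 13 fell (58.3%, 26.8% upwards and 31.5% downwards), and in B-like cells 28 of 61 rose and 9 fell (43.3%, 20.2% upwards and 23.0% downwards). In endothelial-like cells 13 of 52 rose and 3 fell (31.2%, 17.9% upwards and 13.3% downwards), on 1 IRI library that is assumed to vary like the controls. The macrophage-like count of 21 was 13 without the second control library, and the endothelial-like count of 16 was 9 without the third and 7 with DESeq2.

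Of the interferon receptor and signal genes, 4 of 13 tested rose in macrophage-like, 5 of 13 in dendritic-like and 10 of 14 in T-like cells. In cytotoxic-like cells 7 of 14 rose and in B-like cells 8 of 13. Of all genes 10.5%, 15.6%, 28.5%, 26.8% and 20.2% rose in these classes, in the same order. In each of the dendritic-like and T-like classes 1 list gene fell, where 20.8% and 32.0% of all genes fell. JAK1, the kinase that interferon receptors share, rose in all 6 classes, by log2 0.90 to 1.43. In macrophage-like cells it averaged 479 ± 33.2 CPM in CD45+ IRI libraries (SD, n = 2) and 178 ± 4.27 in controls (SD, n = 3), with log2 1.43 ± 0.18 (SE) and adjusted p = 0.000224. USP18, which dampens type I interferon signalling, rose in all 6 classes, and the receptor chain IFNGR1 and the signal factor IRF9 in 5, but several of these calls were lost when 1 library was left out. In dendritic-like cells USP18 passed only narrowly (adjusted p = 0.0495 by edgeR) and overlapped, at 94.6 and 232 CPM in CD45+ IRI libraries against 86.4, 110 and 83.2 in controls. The macrophage-like calls of USP18, IFNGR1 and IRF9 were lost without the first CD45+ IRI library, that of USP18 also without any 1 control library, and that of IFNGR1 also without the second CD45+ IRI or the first or second control library. The dendritic-like call of IRF9 was lost without the first CD45+ IRI or the third control library, and the endothelial-like call of USP18 without the third control library. IRF8, a factor that type 1 dendritic cells need, fell in dendritic-like cells to 952 ± 10.3 in CD45+ IRI libraries, against 1774 ± 69.3 in controls (adjusted p = 4.91e-05). Over the signal list the median log2 ratio was 0.27 in macrophage-like, 0.19 in dendritic-like, 0.82 in T-like, 0.65 in cytotoxic-like, 0.91 in B-like and 0.95 in endothelial-like cells, where the medians of all genes were -0.29, -0.10, -0.04, -0.05, -0.01 and -0.07.

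Other targets of interferon-gamma moved in both directions in the cells where CXCL9 was low. Of 23 tested in dendritic-like cells 4 rose and 4 fell, close to the 15.6% of all genes that rose and the 20.8% that fell. IFI30, a thiol reductase of antigen processing, rose to 2148 ± 279.7 CPM in CD45+ IRI libraries, against 819.9 ± 80.4 in controls (adjusted p = 9.22e-06). SERPING1, the C1 inhibitor, fell by 2.47 ± 0.27 on the log2 scale (adjusted p = 5.14e-05), and the costimulatory receptor CD40 and the proteasome activator PSME1 fell by 0.87 and 0.84. In macrophage-like cells 7 of 23 rose and 1 fell, where 10.5% of all genes rose and 15.3% fell. CD74, the invariant chain of MHC class II, rose there to 7039 ± 2038 in CD45+ IRI libraries, against 2915 ± 279 in controls (adjusted p = 0.000519), and the adhesion ligand ICAM1 rose by log2 0.96. In T-like cells, where CXCL10 was higher, 12 of 24 rose and 4 fell, against 28.5% and 32.0% of all genes. TAP1, a peptide transporter of MHC class I, rose to 687 ± 8.85, against 182 ± 11.2 in controls (adjusted p = 2.03e-10), and the GTPase GBP1 rose by log2 1.44. In endothelial-like cells ICAM1 was at 1779 in the CD45- IRI library and 539.7 ± 99.4 in controls (SD, n = 3), with the spread of the lone IRI library unknown.

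In the kynurenine and tryptophan list, genes moved in both directions in dendritic-like cells, where 4 of 13 tested rose and 3 fell. Of all genes in that class 15.6% rose and 20.8% fell. IL4I1, another enzyme that degrades tryptophan, rose to 368 ± 141 CPM in CD45+ IRI libraries, against 101 ± 4.81 in controls (log2 1.86 ± 0.20, adjusted p = 5.18e-05). KMO, which hydroxylates kynurenine, rose to 94.4 ± 16.5, against 27.3 ± 3.999 in controls (adjusted p = 0.00015). AFMID, the formamidase that follows IDO1 in the pathway, rose by log2 1.09. KYNU, the kynureninase, fell to 54.2 ± 1.84 in CD45+ IRI libraries, against 93.6 ± 3.92 in controls (adjusted p = 0.00846), and the amino acid carrier SLC36A4 to 12.9 ± 6.69, against 34.96 ± 3.76 in controls (adjusted p = 0.0108). KYAT1, a kynurenine aminotransferase, was at 0 in both CD45+ IRI libraries and at 5.41 ± 2.35 in controls (adjusted p = 0.0277). In macrophage-like cells 1 of 16 rose and 4 fell, against 10.5% and 15.3% of all genes. Both AHRR and CYP1B1 are targets of the aryl hydrocarbon receptor. AHRR was the gene that rose, to 20.6 ± 1.99 in CD45+ IRI libraries, against 1.87 ± 0.78 in controls (adjusted p = 0.00329), a call lost without the first CD45+ IRI library. CYP1B1 was at 0 in both CD45+ IRI libraries and at 26.6 ± 4.80 in controls (adjusted p = 0.00205), and HAAO, which acts late in the pathway, fell to 6.97 ± 6.40, against 33.4 ± 6.06 in controls, a call lost without the first CD45+ IRI library. SLC7A5, a carrier of tryptophan and kynurenine, rose in 5 of 6 classes, in dendritic-like cells with a call lost without the first CD45+ IRI library. AHR, the receptor that kynurenine can bind, was at 11.8 in the endothelial-like cells of the CD45- IRI library and at 204 ± 44.2 in those of controls (SD, n = 3), in cells that differed in cluster and in AT2 markers as given above, whose part was not tested.

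Among the partners of CXCR3, DPP4 fell in all 6 classes, by 1.82 to 4.61 on the log2 scale. DPP4 (CD26) is a peptidase that trims CXCL9, CXCL10 and CXCL11 and weakens them as CXCR3 ligands. In cytotoxic-like cells it averaged 11.9 ± 3.03 CPM in CD45+ IRI and 110.5 ± 5.90 in control libraries (adjusted p = 6.45e-10). In T-like cells it averaged 8.58 ± 3.99 in CD45+ IRI and 116 ± 13.1 in control libraries, and in macrophage-like cells 7.49 ± 0.24 in CD45+ IRI and 80.2 ± 19.6 in control libraries. RUNX3, a factor of cytotoxic and resident T cells, fell in T-like cells to 12.5 ± 0.41, against 95.7 ± 18.96 in controls (adjusted p = 1.51e-09), and in cytotoxic-like cells to 29.1 ± 2.04, against 102.5 ± 15.6. The fall was not particular to these cells. RUNX3 fell in 4 of the 5 classes where it was tested, by log2 3.59 in B-like and 1.03 in dendritic-like cells. Other genes of CXCR3-bearing cells went the other way. STAT4, which carries the interleukin 12 signal, rose in cytotoxic-like cells to 207 ± 10.1, against 73.4 ± 5.77 in controls (adjusted p = 1.9e-08), and IL2RB, a chain of the interleukin 2 and 15 receptors, to 937 ± 26.7, against 399.9 ± 28.4. STAT4 rose in 4 of 6 classes, by log2 1.49 in cytotoxic-like, 1.72 in dendritic-like and 1.66 in B-like cells. Of 16 partners tested in cytotoxic-like cells 8 rose and 5 fell, where 26.8% of all genes rose and 31.5% fell. Of 16 in T-like cells 4 rose and 7 fell, where 28.5% of all genes rose and 32.0% fell.

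**Figure D5:**
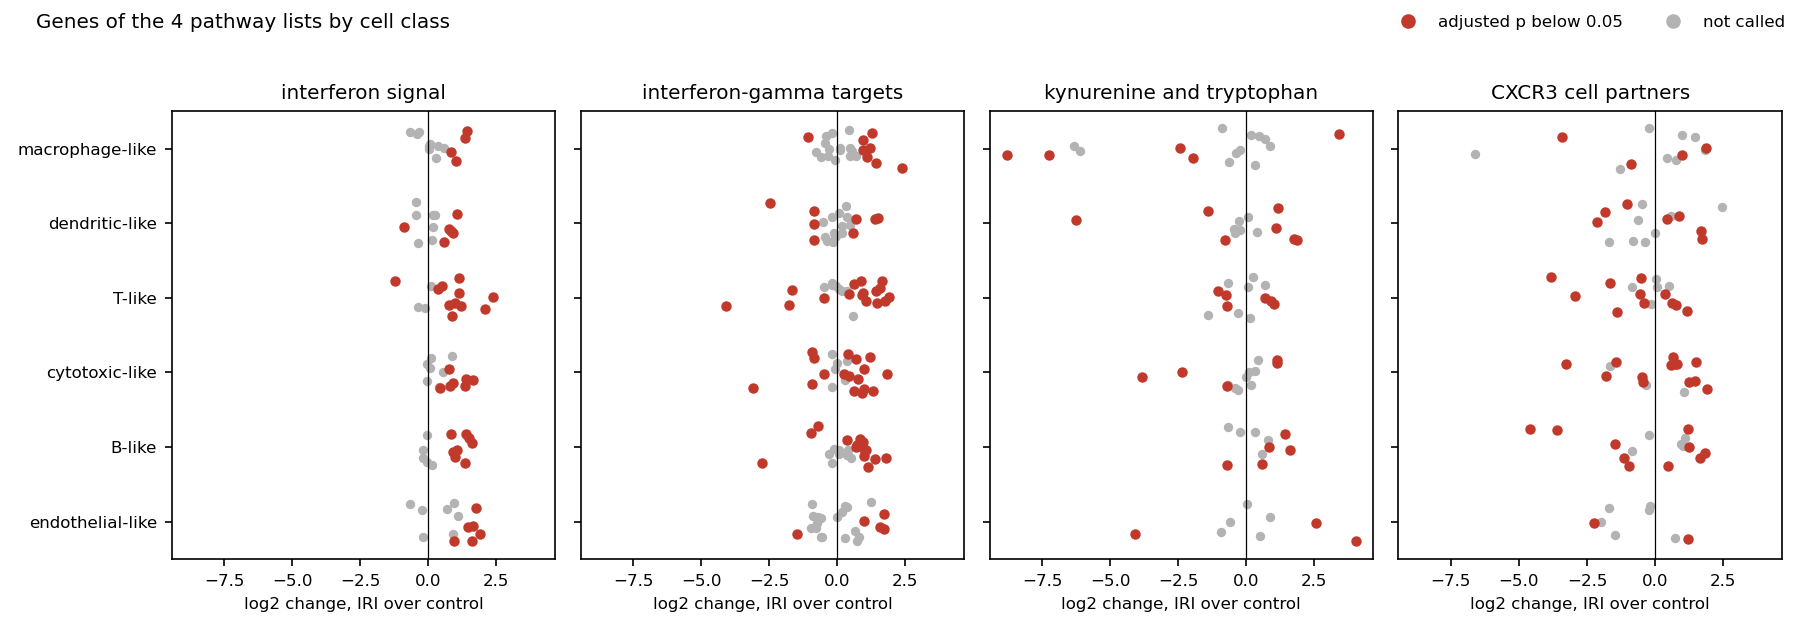
Log2 ratio of IRI over control for the genes of the 4 lists in each of the 6 classes tested, each point 1 gene, red where the adjusted p of edgeR is below 0.05 and grey elsewhere. The interferon signal genes called in B-like and endothelial-like cells all lie above 0, and the other lists have called genes on both sides.

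Across 76 sums of a class in a library (50 cells or more), the patterns most like each member were found among 11399 genes by Pearson's r of log2(CPM + 10); the sums share libraries and cell types, so r is a description. For CXCL9 they were C1orf54 (r 0.88), TMEM47 (0.87), JAM2, a junction molecule of endothelium (0.83), CTTNBP2NL (0.81) and ZNF366 (0.80). For CXCL10 they were weaker, TGFBI (0.66), VCAM1, an adhesion ligand for leukocytes (0.65), OLR1 (0.65), the interferon-induced OAS1 (0.64) and HLX (0.63). For CXCL11 they were PPM1J (0.75), ICAM5 (0.67), C1orf54 (0.67), ZNF385A (0.62) and TAC1 (0.62). For IDO1 they were MREG (0.93), EBI3, a cytokine subunit of interleukins 27 and 35 (0.87), the cytokine IL18 (0.86), CD300C (0.84) and SLAMF9 (0.84). For CXCR3 they were RASAL3 (0.88) and JAKMIP1 (0.86) and the mitotic genes TPX2 (0.88), BUB1 (0.86) and CCNA2 (0.86). Among the members r was 0.63 between CXCL9 and CXCL11, 0.55 between CXCL9 and CXCL10 and 0.50 between CXCL10 and IDO1, and -0.25 to -0.39 between CXCR3 and each of the others.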

How the data were processed

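UMI counts per gene and cell were deposited by the authors for 6 libraries, made per the file headers with PISA, and the submitters' processing notes name Seurat 5.5.3, R 4.2.2 and the build Sscrofa11.1. Neither aligner nor annotation is given in the sources used here. The gene lists of the files differ: 23556 of 33025 genes were listed in all 6, and these held 98.8% to 99.9% of the UMIs of the IRI libraries and 85.8% to 89.0% of those of controls, so levels use the UMIs of these shared genes as their base, a choice made after the files were seen. Of 17062 features named by Ensembl ID, 139 were given a symbol from the gene table.

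Cells with at least 500 UMIs, 200 genes and at most 20% mitochondrial UMIs were kept. Scrublet called at most 5 doublets in a library and so did not work, and an alternative removed the top 6% of its scores. Of 20587 barcode names, 8874 occurred in more than 1 library and 1898 in all 6, and cells were kept apart by library. Clusters came from scanpy 1.11.5 (Python 3.11.15, Leiden resolution 1.0, 30 components, 15 neighbours) on 2000 variable genes without the 5 members and the 80 list genes. Class names, ending in "-like", came from markers of 22 types, and 12 of 37 clusters stayed unnamed. The members and the lists were chosen with earlier results of these data known.

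Shares have exact Clopper-Pearson 95% intervals, levels exact Poisson intervals, and thinned shares are the expected share with each cell cut to 500 UMIs, leaving out shallower cells. Classes needed 20 cells in a library, and a count of 0 was set at a floor of 3 counts. The shares of all genes with the IRI libraries all above or all below the controls were counted on TMM-scaled CPM. UMI counts summed per library and class were tested with edgeR 4.0.16 (R 4.3.3; TMM, filterByExpr, robust quasi-likelihood), with DESeq2 1.42.0 as an alternative, and the procedure was tested on simulated data. The named list genes are, in each list and class, up to 4 called genes with the smallest p. Added to these were genes called in most classes and, in dendritic-like cells, KYNU, SLC36A4 and KYAT1. The added genes were picked after their values were seen. Nothing says that libraries of a group came from separate animals, so p-values measure the spread between these libraries. In whole suspensions and sorted cells alike, a level per class cannot tell fewer expressing cells from less RNA in each.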

Additional observations from a re-analysis of the deposited data

Results flagged for a closer look

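CXCL10 moved in opposite directions in different classes. Every CD45+ IRI library lay above every control in T-like cells, where the log2 ratio was 1.22, and 0.41 under the stricter cell filter. A single cell gave a large part of the T-like UMIs of the second CD45+ IRI library, and no expression is read from the control T-like shares. Every CD45+ IRI library lay below every control in dendritic-like cells (-3.20), macrophage-like cells (-2.99) and plasma-like cells (-2.37). CXCL10 is not expected in plasma-like cells, which were taken as a background class, so no expression is read from their values. The difference between the classes itself was not tested, since CXCL10 was among the genes chosen on this contrast.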

How the results depend on the processing

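No log2 ratio of a member turned its sign where the groups did not overlap, and 200 of 222 values over 19 ratios moved by less than the spread between libraries. Under the cell filter of 1000 UMIs, 500 genes and 10% mitochondrial UMIs the ratio for CXCL10 was -2.26 in dendritic-like, 0.41 in T-like and 2.40 in cytotoxic-like cells, for CXCR3 -1.72 and for IDO1 3.07 in cytotoxic-like cells, and for CXCL9 -0.93 in B-like cells. With no doublets removed CXCL10 was at 1.89 and IDO1 at 2.97 in cytotoxic-like cells, and with sums thinned to the smallest total IDO1 was at 3.09 there. CXCL9 was at -0.70 in B-like cells at clustering resolution 2.0 and at -1.97 in endothelial-like cells with TMM scaling. Leaving out 1 library at a time, CXCL9 ranged from -3.71 to -0.59 in macrophage-like, -3.45 to -1.82 in dendritic-like and -3.03 to -1.21 in B-like cells, CXCR3 from -2.15 to -1.52 in T-like and -2.70 to -1.79 in B-like cells, and IDO1 from 2.25 to 3.23 in cytotoxic-like and -1.14 to 0.0052 in B-like cells. With all UMIs as the base of the levels, an alternative added after seeing the data, no ratio moved by more than that spread.

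The count of list genes called kept within 1.5 times in 76 of 81 values. In macrophage-like cells it was 21, but 11 with thinned sums, 13 with the replicate number as a block, and 13 to 19 with 1 library left out. In endothelial-like cells it was 16, but 7 with the DESeq2 Wald test and 9 to 19 with 1 library left out. Deviations of the control and CD45+ IRI libraries from their group means correlated within 0.065 of 0. With 2 CD45+ IRI libraries the deviations of 1 mirror those of the other, so this cannot tell whether the replicate numbers pair the libraries. Under the block the other counts were 22 (dendritic-like), 44 (T-like), 44 (cytotoxic-like) and 37 (B-like). Of 93 list results named by smallest p, 26 lost their call under some alternative and none turned. Results named outside that rule, such as dendritic-like KYNU, SLC36A4 and KYAT1, are not in this count. The cause of these shifts was not tested. The fibroblast-like comparison was not run, since the CD45- IRI library held 5 such cells. Few IRI macrophage-like and dendritic-like cells, low CXCR3 counts and 1 CD45- IRI library limit the precision.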

Other observations

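Cells that belong to no comparison also held members. AT1-like cells of the CD45- IRI library, the flat cells of the gas exchange surface, held CXCL10 at 139 CPM (Poisson interval 97.9 to 192, 276 cells), with 37 UMIs in 10 cells. Basal-like cells, the stem cells of the airway, held IDO1 at 30.4 in that library, but 26 of the 44 UMIs came from 1 cell. Cluster 19, an unnamed epithelial cluster led by SCGB1A1 and PIGR, held IDO1 at 23.0 with a UMI in 26 of 1053 cells, and CXCL10 at 40.2. Cluster 13, an unnamed cluster led by BDKRB2, THBS1, TNC and IL6, held CXCL10 at 77.1 and CXCL9 at 25.1 in 911 cells of the same library. In the first CD45+ IRI library cluster 9.0, an unnamed cluster led by CGA, SCART1 and NPY, held CXCL10 at 301, with 163 UMIs in 9 of 101 cells and 69 of them in 1 cell. None of these clusters had 20 cells in a control library, so they have no control level.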
